A study of Mus musculus with 12 samples.

Results

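A set of 10 genes of extracellular matrix breakdown and its control was followed in mouse bone marrow-derived macrophages with and without the histone methyltransferase DOT1L. The set holds 6 matrix metalloproteinases (Mmp8, Mmp9, Mmp12, Mmp13, Mmp14 and Mmp19), 3 tissue inhibitors of metalloproteinases (Timp1, Timp2 and Timp3) and the aggrecan-cleaving protease Adamts4. The 10 members were listed by name, found in the count tables of both conditions and each represented by the transcript with the highest total count, out of 24445 genes treated the same way. No measured value served to choose them within the rule, although the list was drawn up with results of these data known.

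Matrix metalloproteinases are zinc enzymes, mostly secreted as inactive precursors, that cut collagens, elastin, gelatin and other matrix proteins after their prodomain is removed. TIMP proteins bind the active site of the mature enzymes and block it, so the balance of enzyme and inhibitor bears on matrix turnover. Macrophages of inflamed tissue and of atherosclerotic plaques are known sources of these enzymes, and the series as a whole concerns DOT1L in macrophage lipid synthesis, inflammation and plaque stability.

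Bone marrow of C57BL/6 mice was cultured with L929-conditioned medium, which supplies M-CSF, over 7 to 8 days. The mice were DOT1L wild type (WT) or knockout (KO) in myeloid cells, and Lyz2, a lysozyme gene whose promoter is widely used to drive Cre recombinase in myeloid cells, stands beside the strain in the labels. Neither the age of the mice nor the exons deleted are given in the sources used here. The 4 groups were untreated WT, untreated KO, WT after 3 hours with lipopolysaccharide (LPS) of Escherichia coli at 10 ng/mL, and KO after the same treatment, with 3 libraries each that the series calls biological replicates. LPS, from the outer membrane of Gram-negative bacteria, is sensed through the receptor TLR4.

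With 1 transcript per gene, libraries held 8.64 to 13.5 M reads. Levels are CPM (read counts relative to the library total) after TMM scaling over the 12 libraries, and a floor of 3 reads corresponds to 0.186 to 0.444 CPM, for counting error only. Replicate 1 of WT stood apart in both conditions: the chi-square per degree of freedom against the other replicates of its group was 14.1 to 32.4, compared with 2.54 to 7.69 for all other pairs of replicates. No 2 replicates agreed within counting noise. Replicate 2 of every group had Ddx3y at 94.4 to 107 CPM and Xist at no more than 0.643 CPM, whereas replicates 1 and 3 had 538 to 821 CPM of Xist and no Ddx3y read, so both genotypes held the same mixture of sexes. All 8 macrophage markers had reads in all groups. Dot1l itself differed by -0.15 ± 0.13 (SE) on the log2 scale in untreated KO and by 0.07 ± 0.09 with LPS (edgeR adjusted p = 0.902 and 0.754), and the count of a whole transcript does not check a deletion of some exons. Lyz2 was lower in KO than in WT with LPS, by -1.17 ± 0.10 (adjusted p = 0.00143).

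Levels can be set side by side between genes only per transcript length, for which the authors' RPKM (reads relative to transcript length and library total) was used within each group. In untreated WT cells Mmp12, macrophage elastase, was the highest member with a mean of 708 RPKM. Timp2 followed at 137 RPKM, and the ranges of Mmp9 (36.7), Mmp8 (22.3), Mmp13 (17.6) and Mmp19 (16.1) overlapped with that of their neighbour in this order. Timp1 (1.90) and Mmp14 (1.54) also overlapped, and Adamts4 (0.0387) and Timp3 came last. In untreated KO cells Mmp13 (41.7) and Mmp8 (40.9) came next after Timp2 with overlapping ranges, above Mmp9 at 18.9 RPKM.

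With LPS the order was another one. In WT cells Mmp12 (600 RPKM) was followed by Mmp13 (491), Timp2 (84.8) and Mmp14 (59.0), with no overlap between these neighbours. Adamts4 (20.9), Mmp9 (20.4) and Mmp8 (15.6) formed an overlapping run below them, ahead of Timp1 (8.43) and Mmp19 (4.99). In KO cells Mmp13 was in first place at 1047 RPKM, above Mmp12 at 649, and the ranges of the 2 genes did not overlap. Of the RPKM summed over the 6 metalloproteinases, Mmp13 held 1.91% to 2.71% in untreated WT libraries, 4.86% to 5.12% in untreated KO, 37.5% to 44.2% in WT with LPS and 54.8% to 62.9% in KO with LPS. Timp1 held 0.96% to 1.82% of the RPKM summed over the 3 inhibitors without LPS, 6.98% to 11.1% in WT with LPS and 16.1% to 17.3% in KO with LPS.

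**Figure D1:**
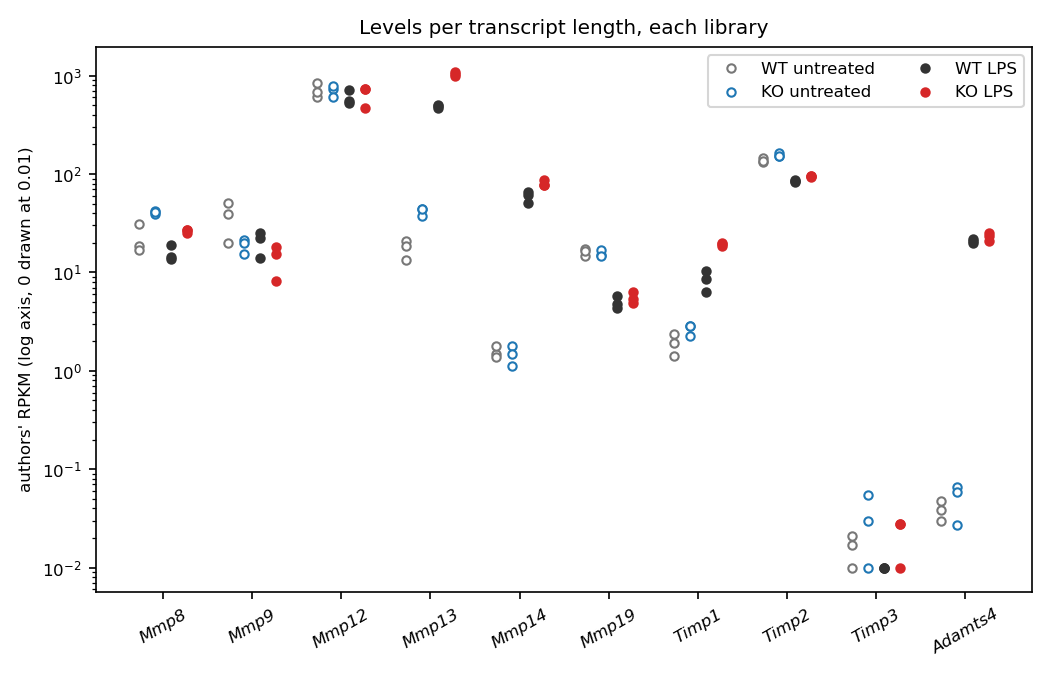
The authors' RPKM of each member (log axis, values of 0 drawn at 0.01) in every library of the 4 groups. Mmp12 is highest in untreated cells at group means of 708 and 713 RPKM, and Mmp13 reaches 1047 RPKM in KO cells with LPS.

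The first question was which members differed between KO and WT cells. Mmp13, collagenase-3, cleaves fibrillar collagens and is the main interstitial collagenase of rodents. It lies on chromosome 9 at chr9:7272514-7283333 of GRCm38.p6, the assembly also known as mm10, at the lower-coordinate end of a cluster of 10 Mmp genes. Untreated WT replicates 1, 2 and 3 had 35.5, 51.9 and 45.7 CPM of Mmp13, and KO replicates had 104.9, 91.0 and 105.1 CPM. Each KO value was above each WT value, with means of 44.4 ± 8.27 (SD, n = 3) and 100.3 ± 8.10 CPM. The log2 difference was 1.20 ± 0.14 (SE) and did not pass the threshold of 0.05 in edgeR (adjusted p = 0.0832), while it did in DESeq2 (adjusted p = 1.31e-10) and in edgeR without WT replicate 1 (1.08 ± 0.08, adjusted p = 2.22e-06).

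With LPS, WT replicates had 1855, 1824 and 1768 CPM of Mmp13 and KO replicates 3749, 3689 and 3871 CPM. The groups were far apart relative to their spread, at means of 1816 ± 44.0 and 3770 ± 92.6 CPM (SD, n = 3 each). Mmp13 was 2.07-fold higher in KO, a log2 difference of 1.05 ± 0.08 with an edgeR adjusted p of 4.91e-04. It passed the threshold in each of the 6 fits that left out 1 library, at 1.02 to 1.07 on the log2 scale. In bulk RNA, more cells expressing a gene and more RNA per cell cannot be told apart, for this and all other members.

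Mmp8, the collagenase known from neutrophil granules, lies in the same cluster at chr9:7558429-7568486. It had 76.6, 42.4 and 38.6 CPM in untreated WT replicates and 86.1, 94.6 and 90.0 CPM in untreated KO replicates. With LPS the values were 68.2, 45.1 and 47.0 CPM in WT and 89.0, 91.3 and 82.3 CPM in KO. All KO libraries were above all WT libraries in both conditions, and WT replicate 1 was the WT library nearest to KO each time. The log2 difference without LPS was 0.81 ± 0.24 (adjusted p = 0.426). With LPS it was 0.71 ± 0.15, or 1.64-fold, and passed the edgeR threshold at an adjusted p of 0.0473. In the 6 fits without 1 library the difference stayed at 0.59 to 0.93. The call was lost in 5 of them (adjusted p 0.0784 to 0.233) and kept without WT replicate 1, at 0.93 ± 0.08 (adjusted p = 5.86e-06). Without WT replicate 1 the untreated difference was 1.19 ± 0.07 (adjusted p = 6.74e-08).

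Promoter sequences are shown for Mmp13, Mmp8 and Timp1, whose RNA was higher in KO cells with LPS, and for Mmp12, the neighbour of Mmp13, which did not pass that test. They are RefSeq windows of GRCm38.p6 on the plus strand, from 250 bases before to 50 bases after an annotated start. The table used had a window for 7 of the 10 members, and 2 for Mmp12, the first at the start of the gene and the second at a start inside it. Capitals mark 4 motifs: TGANTCA, the site known to bind AP-1 (dimers of Fos and Jun proteins), TATAAA or its reverse complement TTTATA, the TATA box, and AGGAAG or its reverse complement CTTCCT, a core site of ETS factors, and the NF-kB consensus. The Mmp13 window spans chr9:7272264-7272563, the Mmp12 windows chr9:7344147-7344446 and chr9:7347124-7347423, the Mmp8 window chr9:7558179-7558478 and the Timp1 window chrX:20869916-20870215.
Mmp13: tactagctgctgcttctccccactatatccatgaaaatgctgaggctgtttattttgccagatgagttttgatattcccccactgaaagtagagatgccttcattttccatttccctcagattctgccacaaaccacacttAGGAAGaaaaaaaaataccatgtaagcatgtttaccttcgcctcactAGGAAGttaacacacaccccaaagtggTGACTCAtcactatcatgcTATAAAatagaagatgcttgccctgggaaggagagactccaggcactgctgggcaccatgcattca
Mmp12 first: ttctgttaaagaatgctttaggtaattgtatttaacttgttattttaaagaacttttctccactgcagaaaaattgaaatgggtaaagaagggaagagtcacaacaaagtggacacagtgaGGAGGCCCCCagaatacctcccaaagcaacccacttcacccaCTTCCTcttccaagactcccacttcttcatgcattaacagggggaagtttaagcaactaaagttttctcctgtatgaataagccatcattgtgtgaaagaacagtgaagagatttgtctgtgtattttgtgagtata
Mmp12 second: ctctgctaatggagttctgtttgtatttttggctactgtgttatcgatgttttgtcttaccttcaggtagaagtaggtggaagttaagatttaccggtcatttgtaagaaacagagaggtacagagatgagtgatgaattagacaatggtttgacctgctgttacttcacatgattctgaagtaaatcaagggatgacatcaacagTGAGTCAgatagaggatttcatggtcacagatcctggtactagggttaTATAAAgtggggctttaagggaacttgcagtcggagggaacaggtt
Mmp8: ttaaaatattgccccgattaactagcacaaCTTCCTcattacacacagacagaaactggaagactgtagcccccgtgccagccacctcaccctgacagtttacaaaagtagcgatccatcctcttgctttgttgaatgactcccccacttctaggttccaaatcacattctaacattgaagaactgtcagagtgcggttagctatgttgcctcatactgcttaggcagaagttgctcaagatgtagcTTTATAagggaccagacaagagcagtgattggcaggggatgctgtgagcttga
Timp1: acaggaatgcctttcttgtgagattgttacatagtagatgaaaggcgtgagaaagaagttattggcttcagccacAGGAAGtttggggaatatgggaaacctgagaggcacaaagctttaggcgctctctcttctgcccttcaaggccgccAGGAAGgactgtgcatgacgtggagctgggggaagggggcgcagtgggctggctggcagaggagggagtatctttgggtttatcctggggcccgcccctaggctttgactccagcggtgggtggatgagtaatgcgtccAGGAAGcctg

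In the Mmp13 window the AP-1 motif reads TGACTCA and begins 35 bases before the start, followed by TATAAA 16 bases before it, with AGGAAG 109 and 62 bases before the start. The first Mmp12 window, at the start of the gene, holds neither TGANTCA nor TATAAA, and has CTTCCT 87 bases and an NF-kB consensus 129 bases before the start. The second Mmp12 window holds TGAGTCA 44 bases before and TATAAA 5 bases after its start. The Mmp8 and Timp1 windows hold no TGANTCA. The AP-1 motif in this spelling was in the window of Mmp13 and in 1 of the 2 windows of Mmp12 among these 7 members. Other spellings of AP-1 sites were not searched, so the windows of Timp1 and the others are not shown to lack them. The searched spelling occurred in 7.81% of the 32851 windows of all genes. TATAAA on either strand occurred in 13.6%, AGGAAG on either strand in 35.4% and the NF-kB consensus on either strand in 8.46% of them. The motifs do not overlap each other in the printed windows, and a match of letters is not a bound site.

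The cluster on chromosome 9 spans 7272514 to 7699585 and holds Mmp13, Mmp12, Mmp8 and 7 further Mmp genes. With LPS 5 of its 10 genes could be tested between the genotypes, and 3 passed, Mmp13, Mmp8 and Mmp10 (stromelysin-2), beside 1.13% of all genes. The cluster was singled out after its values were seen. Mmp10 had 1.78, 3.24 and 2.51 CPM in WT and 7.41, 5.15 and 6.62 CPM in KO libraries with LPS, without overlap, and differed by 1.31 ± 0.24 (adjusted p = 0.0359). Mmp27 differed by 0.43 (adjusted p = 0.373). The other 5 genes of the cluster were at or near 0, with no read of Mmp1a, Mmp7 and Mmp20 in any library, 1 read of Mmp3 and 4 reads of Mmp1b.

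Mmp12, at chr9:7344397-7360461, cleaves elastin and is characteristic of macrophages. Its untreated values were 2204, 2262 and 2806 CPM in WT and 2378, 2028 and 2529 CPM in KO, and the groups overlapped. With LPS it had 2806, 2671 and 3472 CPM in WT and 3555, 2341 and 3533 CPM in KO, again with overlap. The log2 differences of KO over WT were -0.04 ± 0.12 without and 0.07 ± 0.16 with LPS (adjusted p = 0.981 and 0.889).

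Mmp9, gelatinase B, degrades denatured collagen and basement membrane collagen and lies on chromosome 2 (chr2:164940326-164955850). It was the 1 member with lower values in all untreated KO libraries, with 63.8, 115.1 and 149.4 CPM in WT and 60.6, 45.3 and 55.9 CPM in KO. WT replicate 1 lay close to the highest KO library, and the other WT libraries were well above it. The log2 difference was -0.99 ± 0.27 and did not pass in edgeR (adjusted p = 0.364). It passed in DESeq2 (adjusted p = 0.0417) and in edgeR without WT replicate 1 (-1.25 ± 0.18, adjusted p = 0.0266). With LPS the values of 65.6, 94.6 and 105.3 CPM in WT overlapped with 77.1, 35.8 and 64.8 CPM in KO, and the difference was -0.59 ± 0.27 (adjusted p = 0.38).

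Mmp14 is a membrane-anchored collagenase that also activates the precursors of MMP2 and MMP13, and it lies at chr14:54431598-54442456. It was low without LPS, at 5.61, 4.82 and 6.31 CPM in WT and 6.08, 3.87 and 5.004 CPM in KO, and the genotypes overlapped. With LPS it had 367.3, 259.3 and 308.1 CPM in WT and 395.5, 405.3 and 441.7 CPM in KO, with each KO library above each WT library. The difference with LPS was 0.40 ± 0.13 and did not pass (adjusted p = 0.179), whereas without WT replicate 1 it was 0.55 ± 0.09 (adjusted p = 0.0016).

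Mmp19 encodes a secreted metalloproteinase that cleaves basement membrane proteins (chr10:128790910-128800827). Its untreated values were 59.1, 46.3 and 51.7 CPM in WT and 45.4, 52.5 and 45.0 CPM in KO. With LPS they were 29.2, 20.1 and 21.9 CPM in WT and 24.5, 29.6 and 22.2 CPM in KO. The genotypes overlapped in both conditions, with log2 differences of -0.11 ± 0.12 and 0.11 ± 0.16 (adjusted p = 0.923 and 0.82). Of its 3453 exon bases, 789 are shared with Tmem198b on the opposite strand, and since the strand setting of the counting is not given, reads there cannot be assigned to 1 of the genes.

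Adamts4, aggrecanase-1, cleaves the proteoglycans aggrecan and versican and lies at chr1:171250129-171262267. Untreated libraries held 2, 4 and 3 reads of it in WT and 6, 2 and 5 in KO, at or near the floor of 3 reads, and it was not tested there. With LPS it had 186.8, 185.7 and 176.7 CPM in WT and 210.9, 183.9 and 197.5 CPM in KO, and the groups overlapped. The difference with LPS was 0.10 ± 0.08 (adjusted p = 0.622).

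Timp1 is the TIMP known to be induced by inflammatory signals, and it inhibits most secreted metalloproteinases but MMP14 poorly. It lies on the X chromosome at chrX:20870166-20874737, inside an intron of Syn1 on the opposite strand, with 0 shared exon bases. Untreated libraries had 1.26, 1.56 and 1.93 CPM in WT and 1.80, 2.32 and 2.21 CPM in KO, from 13 to 34 reads, and the groups overlapped. With LPS the values were 13.5, 7.60 and 10.0 CPM in WT, from 75 to 91 reads, and 23.3, 22.6 and 22.8 CPM in KO, from 244 to 264 reads. All KO libraries with LPS lay above all WT libraries, and WT replicate 1 was again the highest of the WT libraries. Timp1 was 2.24-fold higher in KO with LPS, a log2 difference of 1.16 ± 0.18 (adjusted p = 0.0128). It kept its direction when any 1 library was left out (0.96 to 1.38) but passed in 2 of these 6 fits, without WT replicate 1 (adjusted p = 3.6e-05) and without WT replicate 2 (adjusted p = 0.0243), and not without WT replicate 3 or any KO replicate (adjusted p up to 0.129). Without LPS the difference was 0.42 ± 0.24 (adjusted p = 0.82). Syn1 differed by -0.19 ± 0.15 with LPS (adjusted p = 0.626).

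Timp2, which inhibits metalloproteinases and also takes part in MMP2 activation by MMP14, was the most abundant inhibitor and lies at chr11:118301061-118355411. It had 533.6, 440.5 and 451.6 CPM in untreated WT and 498.5, 545.3 and 490.4 CPM in untreated KO, with overlap. With LPS it had 444.1, 416.3 and 416.7 CPM in WT and 460.9, 485.6 and 449.0 CPM in KO. Each KO library was then above each WT library by a small margin, and the difference of 0.12 ± 0.08 did not pass (adjusted p = 0.526). Without LPS the difference was 0.13 ± 0.10 (adjusted p = 0.886), and 0.23 ± 0.06 without WT replicate 1 (adjusted p = 0.0355).

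Timp3 is bound to the matrix and is the TIMP that blocks ADAMTS4 and the sheddase ADAM17 (chr10:86300412-86349505). It had 0 to 3 reads in every library and 11 reads over all 12, at or under the floor, and was tested in no comparison.

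Counted together, 0 of the 8 members tested without LPS passed the edgeR threshold between the genotypes, and the same held for all 11622 genes tested (0%). At an unadjusted p under 0.05 there were 3 members, Mmp13, Mmp8 and Mmp9, beside 7.24% of all genes, and DESeq2 called 2 members while limma-voom called 0. The genotypes did not overlap for these 3 members, compared with 15.7% of all genes. Mmp13 and Mmp8 were the 2 that were higher in KO, beside 6.37% of all genes, and Mmp9 was the 1 that was lower, beside 9.28%. With LPS 3 of 9 tested members passed and all 3 were higher in KO, whereas 1.13% of the 11264 genes tested passed, 1% higher and 0.124% lower. The libraries of the 2 genotypes did not overlap for 5 of these members with LPS, all of them higher in KO (Mmp13, Mmp8, Timp1, Mmp14 and Timp2), whereas 20.3% of all genes did not overlap, 10.6% higher and 9.7% lower in KO. The median log2 difference of the tested members with LPS was 0.12, and that of all genes was -0.01.

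**Figure D2:**
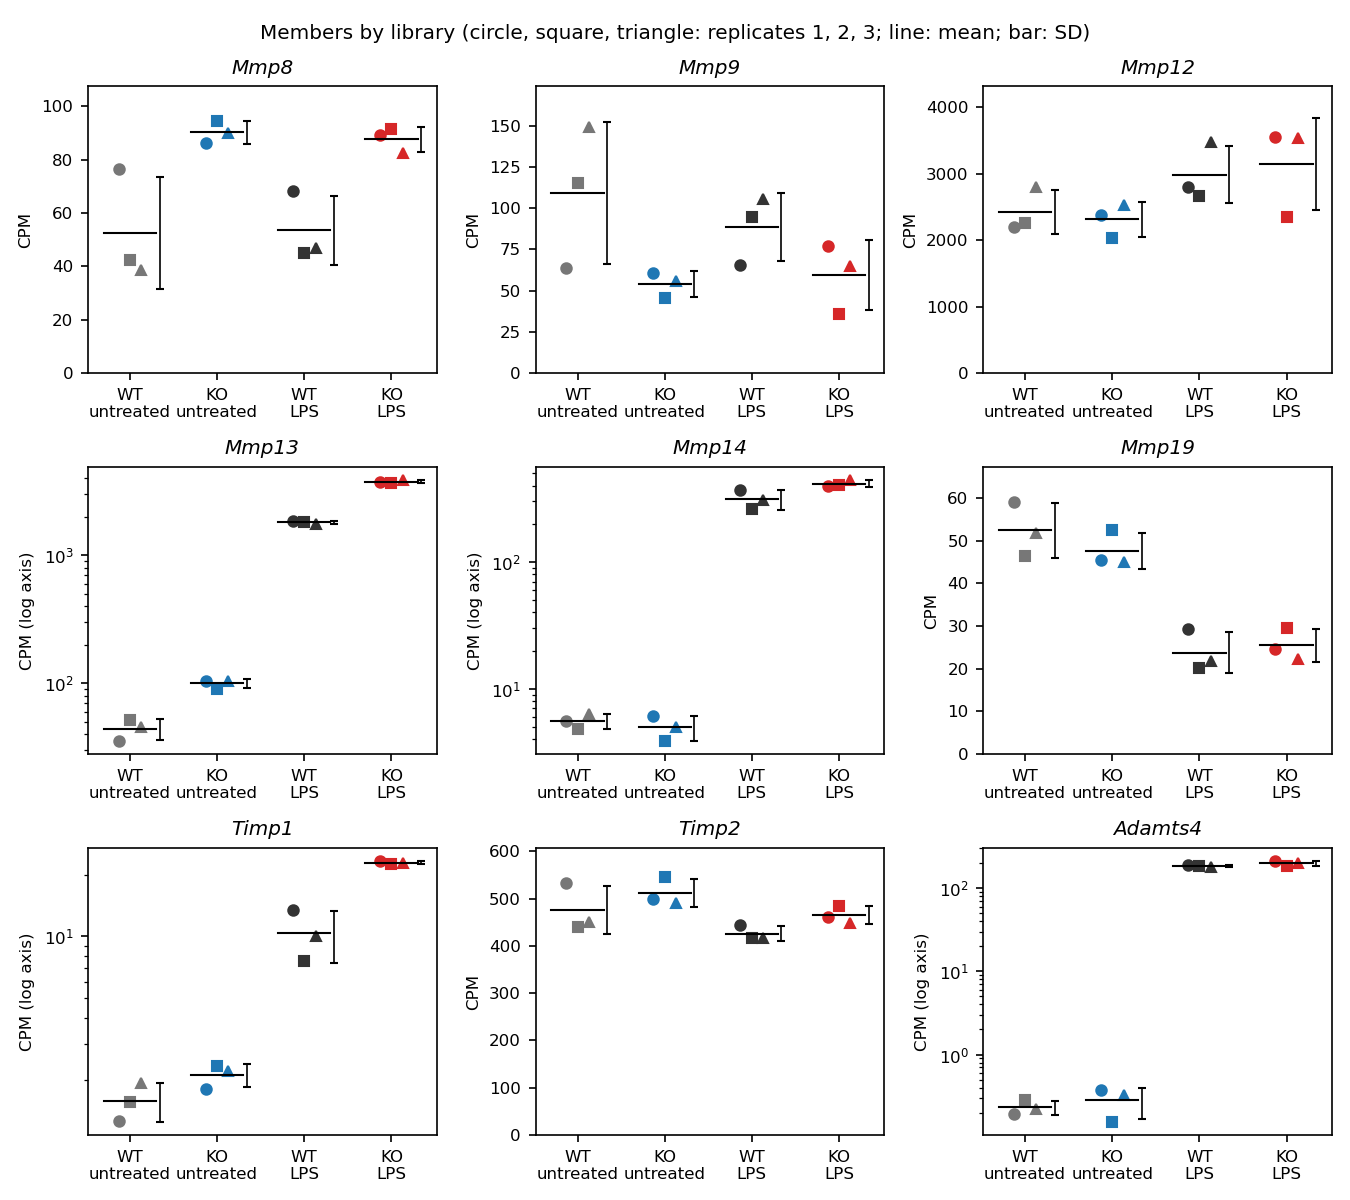
CPM of 9 members in every library of the 4 groups, with circles, squares and triangles for replicates 1, 2 and 3, the group mean as a line and the SD as a bar (log axes for Mmp13, Mmp14, Timp1 and Adamts4). Timp3, with at most 3 reads per library, is left out. KO cells with LPS have Mmp13 at 3689 to 3871 CPM, above the 1768 to 1855 CPM of WT cells.

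**Figure D3:**
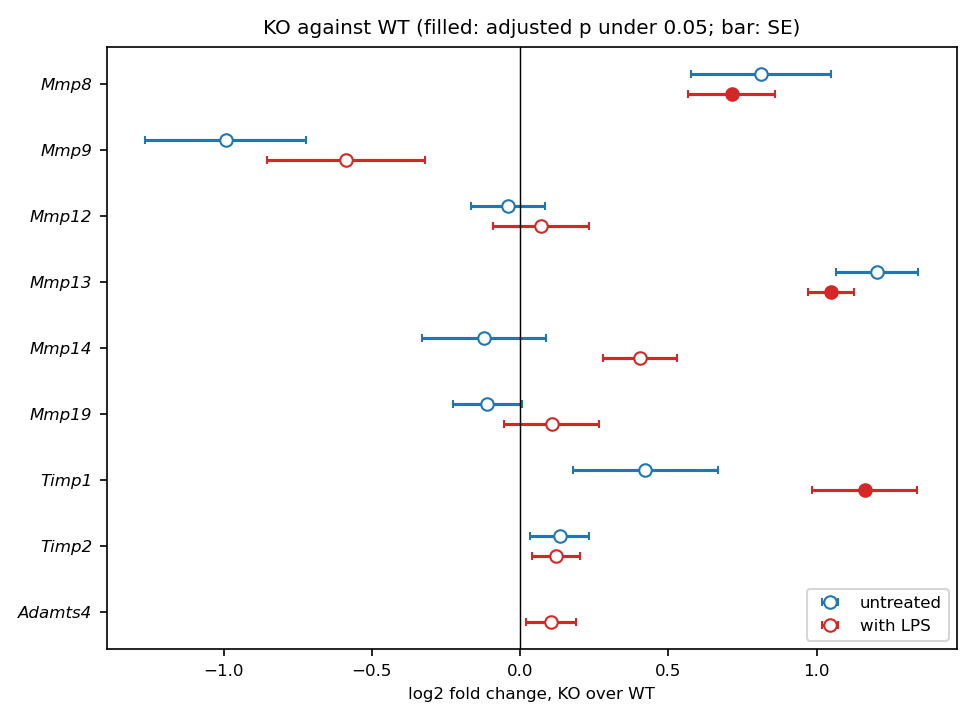
Log2 fold change of KO over WT with its SE for each tested member, without and with LPS (edgeR, 3 libraries per group). Mmp13, Timp1 and Mmp8 pass the threshold with LPS at 1.05, 1.16 and 0.71, and no member passes without LPS.

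**Figure D4:**
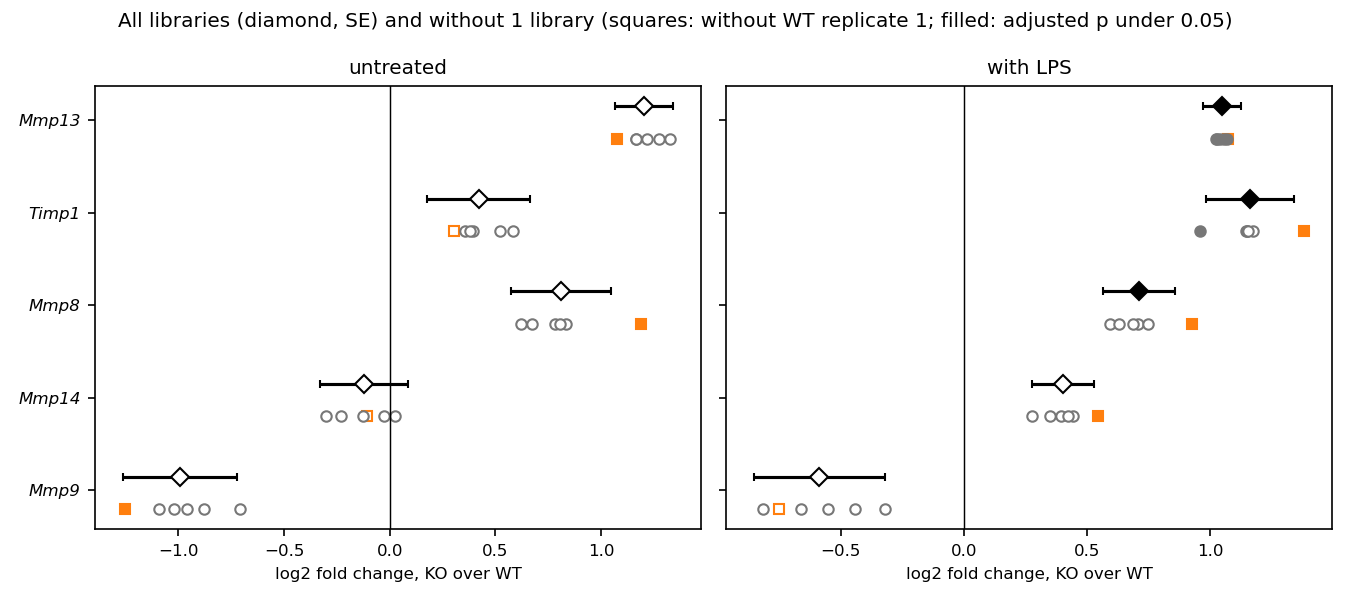
Log2 fold change of KO over WT from all libraries (diamonds, with SE) and from fits without 1 library (points, squares for fits without WT replicate 1, filled where the adjusted p is under 0.05). Mmp13 with LPS stays between 1.02 and 1.07 and is filled throughout, while Mmp8 is filled in the fit without WT replicate 1 alone.

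The second question was how the members responded to 3 hours of LPS in each genotype. Adamts4 was kept by the count filter through its LPS libraries alone and is described apart. With libraries unpaired, 3 of the other 8 tested members rose and 1 fell in WT cells, beside 57.4% of all 11984 genes, 27.6% higher and 29.8% lower. In KO cells 4 rose and 1 fell, beside 61.2% of all genes, 30.3% higher and 30.9% lower. The 11984 genes include some kept by the filter through 1 condition only. A paired fit, given below, added Timp2 as lower in both genotypes and Mmp12 as higher in WT. Libraries with and without LPS did not overlap for 4 of these 8 members in WT, 3 higher (Mmp13, Mmp14 and Timp1) and Mmp19 lower, beside 57.8% of all genes (27.2% higher, 30.6% lower). In KO they did not overlap for 5 of them, the same 3 higher and Mmp19 and Timp2 lower, beside 74.1% of all genes (36.4% higher, 37.7% lower). Scaling by library totals in place of TMM moved the median log2 change of all genes from -0.05 to -0.59 in WT and from -0.02 to -0.62 in KO, since TMM factors were 1.15 to 1.26 without and 0.782 to 0.845 with LPS. On that scale 18.4% of the called genes in WT and 18.5% in KO were higher, compared with 48.1% and 49.5% after TMM. Apart from Adamts4, the members then called higher in both genotypes were Mmp13, Mmp14 and Timp1. Mmp8, Mmp19 and Timp2 were called lower in both, and Mmp9 was called lower in WT. Changes are therefore given after TMM, relative to most genes.

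Mmp14 rose 56.3-fold in WT and 82.6-fold in KO, or 5.81 ± 0.18 and 6.37 ± 0.18 on the log2 scale (adjusted p = 5.98e-12 and 2.67e-12). Mmp13 rose 41.2-fold in WT (5.36 ± 0.13, adjusted p = 1.19e-12) and 37.7-fold in KO (5.24 ± 0.13, adjusted p = 1.03e-12). Both collagenases were higher in all 6 libraries with LPS than in any untreated library, and stayed higher on the library-total scale at 5.26 and 5.77 for Mmp14 and 4.81 and 4.64 for Mmp13.

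Adamts4 went from 9 pooled reads in untreated WT to 4645 with LPS, a ratio of pooled CPM of 771 with an exact 95% interval of 406 to 1687 for counting error. In KO it went from 13 to 6509 pooled reads, a ratio of 675 (395 to 1269). The intervals of the 2 genotypes overlap. Adamts4 passed the count filter through its LPS libraries alone, so its place among the tested genes already required a difference, and no test is given for it. Without LPS the pooled ratio of KO to WT was 1.23, with an interval of 0.488 to 3.27.

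Timp1 rose 6.40-fold in WT (2.68 ± 0.23, adjusted p = 1.96e-07) and 10.9-fold in KO (3.45 ± 0.20, adjusted p = 3.29e-09). Mmp19 fell by 1.14 ± 0.15 on the log2 scale in WT and by 0.90 ± 0.15 in KO (adjusted p = 2.02e-05 and 1.32e-04). Tmem198b, whose exons overlap those of Mmp19, differed by -0.88 in WT and -0.86 in KO.

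The other 4 tested members, Mmp12, Timp2, Mmp8 and Mmp9, showed smaller differences. Mmp12 differed by 0.31 ± 0.16 in WT (adjusted p = 0.116) and rose by 0.45 ± 0.16 in KO (adjusted p = 0.0258), but this direction flips on the library-total scale (-0.24 and -0.14) and the KO call was lost in 4 of 6 fits without 1 library and in the fit without both first WT libraries (adjusted p = 0.11). Without KO replicate 1 or 2 of the untreated cells, or KO replicate 1 or 3 of the LPS-treated cells, its adjusted p was 0.0614 to 0.129. With same-numbered libraries of a genotype paired as a replicate block, Mmp12 passed in WT as well (0.31 ± 0.06, adjusted p = 8.41e-05) and in KO (0.43 ± 0.06), and Timp2 passed as lower in WT (-0.14 ± 0.05, adjusted p = 0.0221) and KO (-0.13 ± 0.05, adjusted p = 0.0342). Without the block Timp2 differed by -0.15 ± 0.09 in WT and -0.13 ± 0.09 in KO (adjusted p = 0.173 and 0.224).

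Mmp8 differed by 0.04 ± 0.22 in WT and -0.04 ± 0.21 in KO (adjusted p = 0.903 and 0.897), a change smaller than its SE. The WT value turns with the library left out, from -0.18 to 0.42, and passed without untreated WT replicate 1 (adjusted p = 0.0162). On the library-total scale it was -0.51 in WT and -0.63 in KO. Mmp9 differed by -0.30 ± 0.29 in WT and 0.14 ± 0.30 in KO (adjusted p = 0.411 and 0.706).

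**Figure D5:**
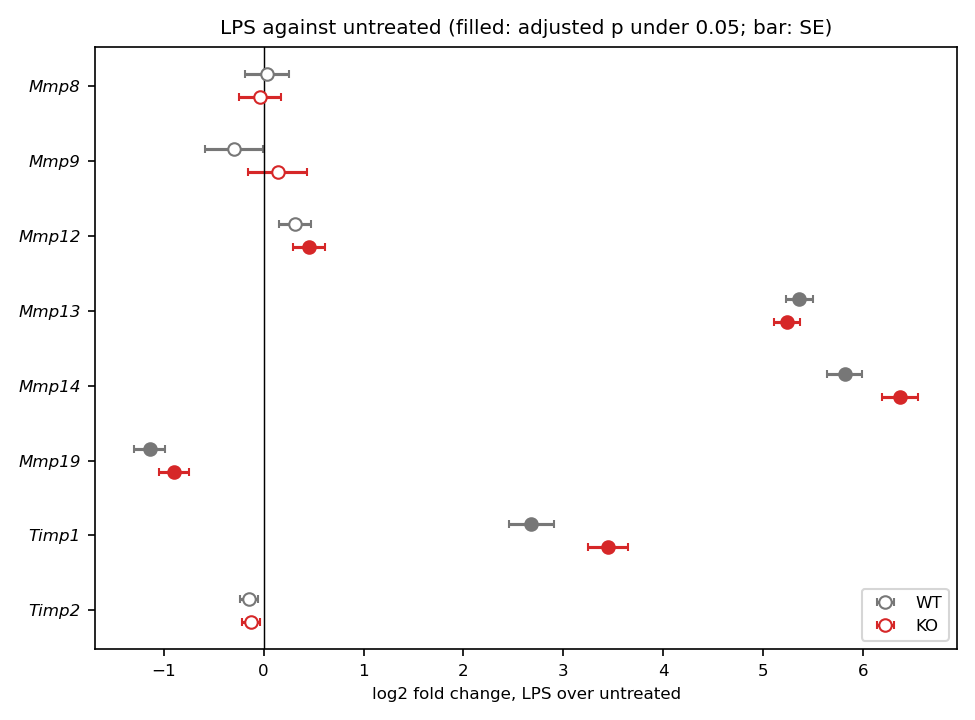
Log2 change with LPS over untreated for each tested member, with its SE, in WT and KO cells (edgeR on 12 libraries). Mmp14, Mmp13 and Timp1 lie between 2.68 and 6.37, Mmp19 lies below 0, and Adamts4 is left out because its untreated libraries held 2 to 6 reads.

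Whether the LPS response itself differed between the genotypes was tested as an interaction over all 12 libraries, unpaired. None of the 8 members apart from Adamts4 and no gene of 11984 passed (0%; edgeR, all adjusted p of these members 1.0). DESeq2 and limma-voom called no gene either. Adamts4 is left out of this count, since the filter kept it through its LPS libraries alone. At an unadjusted p under 0.05 there were 2 members, Timp1 at 0.77 ± 0.32 and Mmp14 at 0.55 ± 0.24 on the log2 scale, beside 2.4% of all genes. With same-numbered libraries of a genotype paired as a replicate block, edgeR called no gene either. Mmp14, Mmp19 and Timp1 then had an unadjusted p under 0.05, and the share of all genes at that level was not counted for this fit. For Mmp13 the difference between the responses was -0.12 ± 0.16, with an approximate 95% interval from -0.44 to 0.19. The interval assumes a normal distribution and is narrower than the F test would give. The calls of Timp1 and Mmp8 between genotypes with LPS and not without it are thus not shown to be specific to LPS.

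Other genes of the pathway were described by lists, whose counts between genotypes with LPS are to be read beside the 1.13% of all genes that passed. Of 17 other metalloproteinase genes 5 could be tested between genotypes with LPS, and Mmp10 alone passed, with a list median of 0.43. Of 8 receptors and clearance proteins, 7 were tested and syndecan-1 (Sdc1), a surface proteoglycan, was higher in KO by 0.58 ± 0.11 (adjusted p = 0.0416). No member passed among the 3 other ADAMTS proteases, 10 ADAM proteases and their iRhom partners, 7 activators and inducers, and 1 further inhibitor that were tested with LPS. That inhibitor was Reck, a membrane-anchored protein that blocks several metalloproteinases, at 0.52 ± 0.29 (adjusted p = 0.466). Without LPS no member of any of these lists passed.

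List counts for the LPS response cover genes that passed the count filter in each condition on its own, and are to be read against the 57.4% of all genes called in WT and 61.2% in KO. Of 3 such other metalloproteinases Mmp10 rose in both genotypes. Among 10 ADAM-related genes 4 rose and 3 fell in both, near the share of all genes, with Rhbdf2, a partner of the sheddase ADAM17, higher by 2.68 ± 0.11 in WT and 2.84 ± 0.11 in KO, and Adam19 lower by -2.47 ± 0.47 and -2.53 ± 0.43. Of 6 activators 3 rose and 1 fell in both: Furin, a convertase that removes the prodomain of MMP14, rose by 2.20 ± 0.10 and 1.97 ± 0.10, and urokinase, Plau, differed by -2.39 ± 0.35 and -2.13 ± 0.35. Of 7 receptors 3 rose and 2 fell in WT, and 4 rose and 2 fell in KO. Those that rose included Sdc4 at 4.29 ± 0.13 and 4.52 ± 0.13, and integrin alpha V (Itgav) at 3.11 ± 0.08 and 3.25 ± 0.08. The hyaluronan receptor Cd44, which docks MMP9 and MMP14 to the cell surface, also rose, by 1.78 ± 0.08 and 1.89 ± 0.08. The 2 that fell in both genotypes were Itgb3 (-1.17 ± 0.14 in WT) and Lrp1 (-0.50 ± 0.16 in WT). Of 2 other ADAMTS genes 2 fell in WT and 1 fell in KO. Reck did not pass (-0.32 ± 0.29 in WT).

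Markers of other cells that can supply these enzymes were measured beside them. Their calls between genotypes with LPS are to be read beside the 1.13% of all genes that passed. Neutrophil markers, relevant for Mmp8 and Mmp9, summed to 14.9 to 30.7 CPM in untreated WT, 19.8 to 28.7 in untreated KO, 28.1 to 66.0 in WT with LPS and 42.4 to 60.6 in KO with LPS, and 0 of the 5 tested passed between the genotypes with LPS, while Ly6g had at most 3 reads in any library. Stromal markers, relevant for Mmp13 and Timp1, summed to 0.594 to 1.35, 1.37 to 1.88, 2.85 to 5.77 and 6.53 to 9.89 CPM in the same order of groups, and Col3a1, Dcn, Lum and Thy1 had at most 3 reads in any library. The stromal sum was higher in each KO library than in any WT library of the same condition, in a range below 10 CPM, and its part in the results was not tested. Without LPS the margin, 1.35 CPM in WT against 1.37 CPM in KO, was smaller than the floor of 3 reads. With LPS much of the sum was Pdgfrb, at 1.60 to 3.55 CPM in WT and 4.04 to 7.37 CPM in KO. Among all genes, 6.37% without and 10.6% with LPS had every KO library above every WT library. Osteoclast markers, for which Mmp9 and Mmp14 are also known, summed to 697 to 1133 CPM in untreated WT, 718 to 844 in untreated KO, 558 to 724 in WT with LPS and 606 to 668 in KO with LPS, where 1 of 5 tested, Acp5, passed (0.98 ± 0.10, adjusted p = 0.00186), and Calcr and Oscar had at most 3 reads. Monocyte markers summed to 58.8 to 103.9 CPM in untreated WT, 100.7 to 135.2 in untreated KO, 204 to 276 in WT with LPS and 335 to 341 in KO with LPS, where 2 of 8 tested, Fn1 and Vcan, were higher in KO, and the part of this in the results was not tested. Most of the monocyte sum with LPS was Vcan, at 151 to 187 CPM in WT and 229 to 243 CPM in KO. Macrophage markers summed to 10459 to 13202, 7570 to 8497, 12921 to 15741 and 9636 to 10992 CPM in the order of groups above, with Lyz2 the 1 called of 8 with LPS. These sums largely follow Lyz2, which alone had means of 6278 and 2760 CPM in untreated WT and KO. With LPS its means were 6981 CPM in WT and 3120 CPM in KO. Of the 8 markers, 4 had log2 differences above 0 in KO without LPS and 5 with LPS. Dendritic cell markers summed to 17.2 to 24.2, 20.6 to 27.2, 10.8 to 17.0 and 17.4 to 19.3 CPM, and 0 of 4 tested passed with LPS. Most of this sum was Kit, at 15.0 to 22.5, 18.1 to 24.4, 6.22 to 12.6 and 10.4 to 13.3 CPM in the same order. With LPS each KO sum was above each WT sum by a small margin, and all 4 tested markers had log2 differences above 0. The part of this in the results was not tested.

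The genes most like Mmp13 over the 12 libraries, by Pearson correlation of log2(CPM + 1), were Cnn3 (0.997), Lipg (0.997), Gm4070 and Gvin1 (0.996 each, with identical counts) and AA467197 (0.996). LPS separates these libraries into 2 sets of 6, so the values describe mainly that split.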

How the data were processed

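Messenger RNA was sequenced in 12 libraries, 4 groups of 3, with single-end reads. The authors' deposited tables give raw read counts and RPKM values (counts over transcript length and library total) for 35745 transcripts, untreated and LPS-treated libraries in separate tables. Tools and build named are STAR 2.5.2b, SAMtools 1.3.1 and mm10 per the submitters' processing notes. Neither the read counter nor its use of strand nor an annotation release is named in the sources used here. RefSeq names of GRCm38.p6 matched 35435 transcripts and GENCODE 193 more, and 117 without a name (0.259% to 0.738% of counts) were left out. Each gene was represented by its transcript with the highest count, as isoforms share reads.

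Counts were tested over all genes with edgeR 4.0.16 in R 4.3.3 (filterByExpr, TMM, robust quasi-likelihood F test, Benjamini-Hochberg adjustment, threshold 0.05), genotypes on the 6 libraries of a condition, LPS responses and the interaction on all 12 without pairing. The filter kept 8 members without LPS and 9 with LPS. Standard errors of log2 changes are the change over the square root of F. DESeq2 1.42.0, limma 3.58.1 (voom, and trend on log2(RPKM + 1) or log2(RPKM + 0.1)), other scalings, filters and transcripts, fits without 1 library and a replicate block were alternatives. The tests were tried on simulated counts. An exact permutation test of 3 against 3 cannot go below p = 0.1 and was not used. Same-numbered libraries of a genotype deviated together from their group means (r = 0.384 to 0.673 in WT, 0.23 to 0.49 in KO), so the numbers were taken to pair LPS-treated with untreated libraries of a genotype, but not WT with KO (r from -0.07 to 0.33 within a condition). The RPKM order is a description.

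The members, the pathway lists and the marker lists were chosen with earlier results of these data known. The rule for naming genes was all members, up to 4 called genes of a list by smallest p or its most abundant one if none was called, and the 5 genes most like Mmp13. Not every list gene that the rule picks is named in the text. Genes of the chromosome 9 cluster, genes that overlap members, Adam19, Rhbdf2 and the markers quoted were chosen after their values were seen where they fall outside that rule.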

Additional observations from a re-analysis of the deposited data

How the results depend on the processing

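Mmp13 with LPS passed under every alternative run for that comparison, and the rises of Mmp13, Mmp14 and Timp1 and the fall of Mmp19 with LPS passed under every alternative run in both genotypes. Between untreated genotypes 0 genes and 0 members passed, but DESeq2 called 49 genes and 2 members, edgeR without a filter 9 genes and 1 member (Mmp13), and all 12 libraries fitted together 27 genes and 1 member (Mmp13), while leaving out 1 library gave 0 to 749 genes and 0 to 4 members. The 749 genes and 4 members came without WT replicate 1, and the other 5 fits called 0 genes. With LPS the 127 genes became 265 in DESeq2, 276 without a filter, 77 and 62 with the authors' RPKM at pseudocounts of 1 and 0.1, 17 genes and 1 member with replicates 1 and 3 only, and 17 to 545 genes and 1 to 4 members without 1 library. Of these fits, the counts were 545, 129 and 20 without WT replicate 1, 2 or 3 and 55, 61 and 17 without KO replicate 1, 2 or 3. With a replicate block the count with LPS was 47 genes and 2 members, and Mmp8 then had 0.73 (edgeR adjusted p = 0.0663). Deviations from group means did not pair WT with KO libraries by number, but a number stood for the same sex in every group. Within genotypes, where the numbers do pair, and apart from Adamts4, the block called the same members in WT and in KO. These were Mmp12, Mmp13, Mmp14 and Timp1 as higher and Mmp19 and Timp2 as lower. The block changed no call of a member beyond Mmp12, Timp2 and Mmp8. The cause of these shifts was not tested.

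Mmp8 with LPS was also lost with all 12 libraries (0.72, adjusted p = 0.157) and with RPKM at a pseudocount of 0.1 (adjusted p = 0.0501), and Mmp8 and Timp1 were lost with replicates 1 and 3 only (0.57 and 0.97, adjusted p = 0.26 and 0.0975). Without both first WT libraries, chosen after seeing the data, 24 genes and 0 members passed the interaction. Library totals without a TMM factor, also added after seeing the data, called 8 members in the WT response to LPS. These 8 include Adamts4, which the filter kept through its LPS libraries alone, and do not include Mmp12. This scaling turned Mmp8 (-0.51) and Mmp12 (-0.24) in WT, Mmp9 (-0.45) and Mmp12 (-0.14) in KO, and the interaction of Timp2 (-0.028).

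The other reversals were of values that did not pass with all libraries. In untreated cells Mmp12 was 0.014 with RPKM at either pseudocount and -0.12 to 0.071 without 1 library, and Mmp14 was -0.30 to 0.026. With LPS Mmp12 was -0.027 to 0.25 and Mmp19 was -0.014 to 0.28 without 1 library, and -0.13 with replicates 1 and 3 only. In the WT response Mmp8 was -0.18 to 0.42 and Mmp9 was -0.54 to 0.0096, and in the KO response Mmp8 was -0.078 to 0.0058 and Mmp9 was -0.091 to 0.40. In the interaction Timp2 was -0.0032 with DESeq2 size factors and in DESeq2, -0.074 without both first WT libraries and -0.11 to 0.057 without 1 library, Mmp8 was -0.47 to 0.14, Mmp12 was -0.0034 to 0.31 and Adamts4 was -0.46 to 0.026. The planned recomputation of CPM levels as RPKM gave no comparable value, since the unit differs. Depth limits Timp3 and untreated Adamts4, at or near 3 reads, and Timp1 without LPS, at 13 to 34 reads.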
